A study of Xenopus laevis with 6 samples.

Results

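The genes described here encode fibroblast growth factors (FGF), ephrins and platelet-derived growth factors (PDGF). Others encode receptor tyrosine kinases for these and other ligands, and proteins that modulate the signal. All were chosen by a rule on names, set with earlier results of these data known. A probe set was a member if its single platform symbol began with one of the family prefixes or matched one of 9 listed genes. The rule found 90 of 15495 probe sets with 1 symbol, reading 72 of 11303 gene copies under 58 gene names. The suffixes L and S mark the copies of the 2 subgenomes of Xenopus laevis, an allotetraploid frog. Probe sets reading erbb2, erbb3 and kdr under a single symbol were not among them, and 6 further probe sets that carry a member's name beside another symbol were left out. In the RefSeq gene list of this frog (assembly Xenopus_laevis_v10.1), 151 gene copies have a name that meets the rule, and 71 of these were read by a member probe set. The platform symbol fgfr1-a was the member not found in that list.

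The arrays were Affymetrix Xenopus laevis Genome 2.0. RNA came from whole early gastrulae at stage 10.5, each sample being 5 embryos combined after injection of 20 ng of morpholino antisense oligonucleotide at the 2-cell stage. The labels name 3 control samples with a mismatched morpholino and 3 samples with a morpholino against Ext1, an enzyme that extends heparan sulfate chains. They do not give the morpholino sequences or the injection site. The 6 deposited columns were a single profile multiplied by 1 constant per column, so control and Ext1 embryos could not be compared for any gene, and every value below is the mean of the 6 columns, a signal with n = 1 and no error.

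Fibroblast growth factors are secreted proteins that bind receptor tyrosine kinases at the cell surface with heparan sulfate as a co-factor. The receptor passes the signal through docking proteins, Ras and the MAP kinase cascade, and in the Xenopus gastrula this route maintains mesoderm and the T-box gene tbxt. Ephrins are membrane-bound, and contact between ephrins and Eph receptors repels cells and helps keep mesoderm and ectoderm apart during gastrulation. PDGF-A made by the ectoderm guides the migration of mesoderm that carries its receptor.

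**Figure D1:**
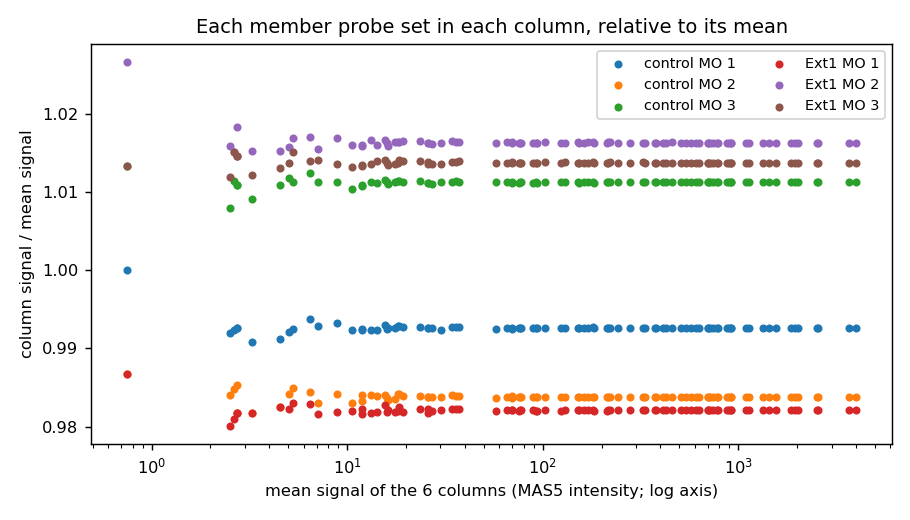
Each point is 1 of the 90 member probe sets in 1 of the 6 columns, with its mean signal on the x axis (MAS5 intensity, log axis) and the column's value divided by that mean on the y axis. The points of a column lie on 1 level over the whole range except below about 10, where rounding to 2 decimals spreads them.

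The brightest probe set of fgf8.L showed the pattern of the columns. Its signal was 2006.31, 1988.44 and 2043.98 in control samples 1, 2 and 3, and 1984.98, 2054.26 and 2049.07 in Ext1 morpholino samples 1, 2 and 3. For fgfr4.S the control values were 2550.82, 2528.09 and 2598.71, and the Ext1 morpholino values 2523.7, 2611.78 and 2605.18. Both genes were lowest in Ext1 morpholino sample 1 and highest in Ext1 morpholino sample 2, and the control values lay within the range of the Ext1 morpholino values. The same order held for the other probe sets, within rounding. Relative to control sample 1, the column constants ran from 0.9894 to 1.0239, and 0 probe sets of the whole table departed from them by more than rounding.

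Signals were set against the highest of 17 Affymetrix Tag probe sets, AFFX-r2-TagE_at, at 24.4. These are array controls and do not read frog genes. Their signals ran from 0.81 to 24.4 with a median of 2.62, and 3 of them lay above 20. The highest does not bound the background of every probe set, and passing it is no detection call. Because each probe set responds in its own way, the signal of one gene says nothing about its RNA level relative to another gene. In whole embryos, fewer cells with a transcript and less transcript per cell cannot be told apart. All 13 gene copies of 7 early gastrula markers lay above the Tag signal, with tbxt.S at 5913.99, gsc.L at 972.71 and sox17a.L at 1451.43. Of 9 gene copies that mark differentiated tissue, 6 did not, among them neurod1.L at 5.27, hba3.L at 0.96 and actc1.L at 17.2. The other 3 were ckm.L at 104.09, elavl3.L at 51.6 and tubb2b.S at 49.55. Over all named gene copies 80.4% lay above the Tag signal, and neither marker count was tested against that share.

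Above the highest Tag signal were 65 of the 90 member probe sets (72.2%), against 78.6% of all probe sets with 1 symbol. Counted once at the brightest probe set, 55 of 72 gene copies passed (76.4%), against 80.4% of all named gene copies. The median signal at the brightest probe set was 166 for members and 357.63 over all named gene copies. As a set, the members thus passed this floor about as often as named genes in general, and no test was made. At higher thresholds the shares lay further apart. Above a signal of 100 they were 55.6% of member copies and 67.6% of all, and above 1000 they were 15.3% and 30.2%. The share varied between roles, which are small sets and were not tested against the 80.4% of all named gene copies. It was 6 of 6 for Sprouty, Spred and Flrt3, 6 of 6 for the classical MAP kinase phosphatases and 8 of 8 for ephrins. For FGF ligands it was 6 of 12, and for the receptors listed singly by name 2 of 6. The 12 include fgf12.S and fgf13.L, which did not pass and are not receptor ligands of the usual kind.

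**Figure D2:**
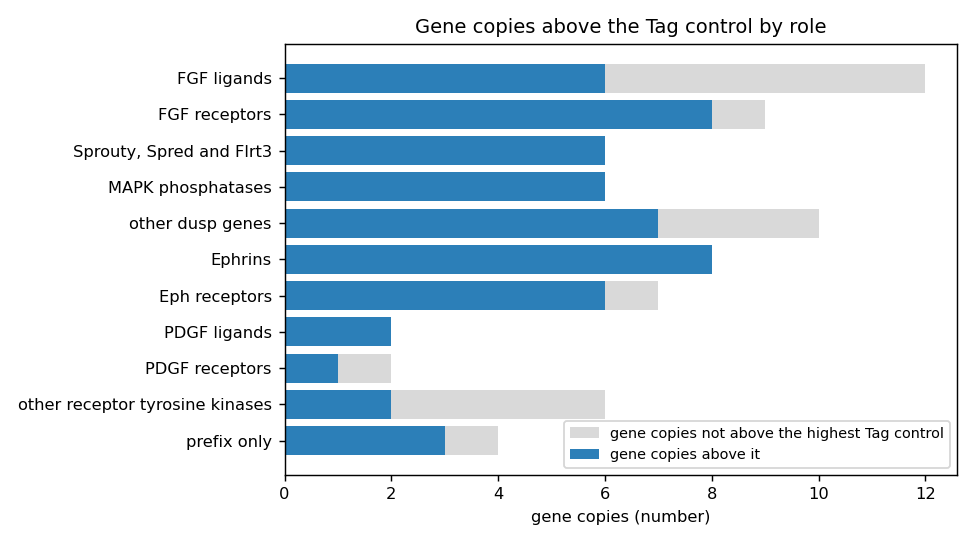
Bars give the number of gene copies in each role, and their blue part the number whose brightest probe set lay above the highest Tag signal (24.4). FGF ligands (6 of 12) and the other receptor tyrosine kinases (2 of 6) had the largest grey parts. The 12 include fgf12.S and fgf13.L, which are not receptor ligands of the usual kind. Over all named gene copies 80.4% lay above this signal. "Prefix only" marks genes with a matching prefix that belong to none of the families.

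Among FGF ligands, 3 of 12 gene copies stood well clear of the Tag signal. They exceeded 4 times that signal, as did 67.8% of all named gene copies. These were fgf8.L at 2021.17, fgf20.L at 213.94 and fgf3.L at 152.27, all secreted FGFs. A second group of 3 was close above it. In this group fgf9.S was at 30.15, fgf2, which lacks a classical secretion signal, at 25.83, and fgf7.L, which signals to epithelia through a splice form of fgfr2 in mammals, at 25.8. These 3 were at 1.23, 1.06 and 1.06 times the Tag signal. A floor of 2 times that signal left 3 of the 12 ligand copies above it in place of 6. Over all named gene copies 74.1% passed that floor.

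The remaining 6 FGF gene copies did not pass. The secreted ligand fgf4, known in the frog as embryonic FGF, gave 18.3 (fgf4.L) and 2.73 (fgf4.S). The signal was 3.28 for fgf1.L, and 7.07 for fgf10.S at its brighter probe set. For fgf12.S and fgf13.L it was 14.3 and 16.3. The latter pair encodes FGF homologous factors, which in mammals act inside the cell on sodium channels and are not receptor ligands of the usual kind. These 12 copies are a part of the family, since the RefSeq list holds 34 FGF gene copies by name; the other 22 were not analysed here.

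The level given to fgf8.L depended on the probe set. Its 4 probe sets were at 2021.17, 630.85, 278.05 and 2.51. The brightest was at 82.8 times the Tag signal and the dimmest was below it, where a fold has no firm base. The brightest, Xl2.32349.1.A1_s_at, has an ID of the type that Affymetrix used for probes shared by several transcripts. The dimmest, Xl2.20011.2.A1_at, shares its ID up to A1 with the probe set at 278.05, Xl2.20011.2.S1_a_at. Which strand each reads was not tested. Hence fgf8.L lay above the Tag signal by 3 of 4 probe sets.

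**Figure D3:**
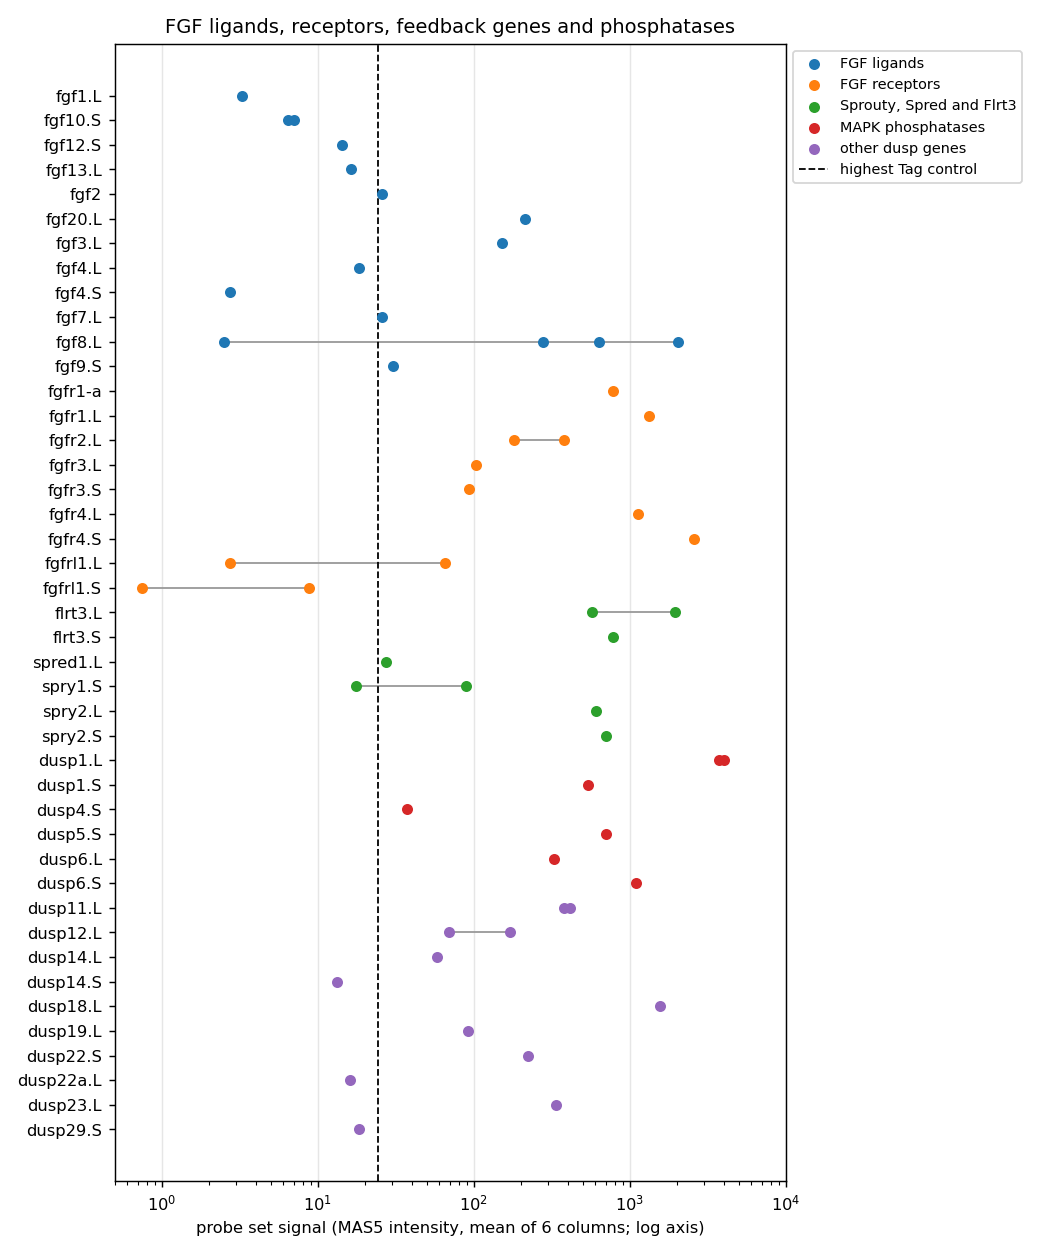
Points are the signals of single probe sets (MAS5 intensity, mean of 6 columns, log axis), with a grey line joining the probe sets of 1 gene copy and the highest Tag signal (24.4) dashed. Receptors fgfr1 to fgfr4 and the classical MAP kinase phosphatases lie to its right, the FGF ligands lie on both sides, and fgf8.L, fgfrl1.L and spry1.S have probe sets on both sides.

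The measured copies of the receptors that carry the FGF signal all had signal above the Tag controls. For fgfr1.L it was 1332.47, and for the probe set named fgfr1-a 783.96. Receptor fgfr4 gave 2569.71 (fgfr4.S) and 1133.4 (fgfr4.L), and fgfr2.L was at 377.41 and 180.62 by its 2 probe sets. The copies of fgfr3 were about 4 times above the Tag signal, with fgfr3.L at 102.43 and fgfr3.S at 93.51. The role also holds fgfrl1, a receptor that lacks the kinase domain. The 2 probe sets of fgfrl1.L were at 65.32 and 2.73, and those of fgfrl1.S at 8.83 and 0.75. So fgfrl1.S was the 1 FGF receptor copy of 9 that did not pass, while 80.4% of all named gene copies passed. These 9 include fgfr1-a, and whether it is a copy apart from fgfr1.L was not tested. The RefSeq list holds 9 FGF receptor copies by name, without fgfr1-a, and 8 of them were measured.

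Feedback genes and modulators of the pathway, several of which FGF signalling itself induces in vertebrate embryos, passed in every measured copy. For Sprouty, Spred and Flrt3 these were 6 of the 16 copies that the RefSeq list holds by name. Over all named gene copies 80.4% passed. Sprouty2, an inhibitor of receptor tyrosine kinase signalling that in Xenopus affects gastrulation movements, was at 701.37 for spry2.S and 607.82 for spry2.L. Its relative spry1.S was at 89.2 by one probe set and 17.6 by the other. A gene of the related Spred family, which restrains Raf activation, was nearest the Tag signal, with spred1.L at 27.2. The transmembrane protein Flrt3, which binds FGF receptors and promotes their signal in Xenopus, was at 1944.99 and 573.02 for flrt3.L and at 775.48 for flrt3.S.

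The classical MAP kinase phosphatases, here dusp1, dusp4, dusp5 and dusp6, passed in 6 of 6 measured copies, against 80.4% of all named gene copies. The RefSeq list holds 16 such copies by name. Best known as a feedback inhibitor of ERK downstream of FGF, dusp6 gave 1095.36 (dusp6.S) and 324.86 (dusp6.L). The nuclear phosphatase gene dusp5.S was at 703.07 and dusp4.S at 37.2. For dusp1, an immediate early gene in mammalian cells, dusp1.L was at 3998.8 and 3703.81 and dusp1.S at 541.79. The probe set at 3998.8 has an ID of the type _x_at. Whether its probes also bind other transcripts was not tested. At 2 times the Tag signal, dusp4.S and spred1.L no longer passed.

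The other dual specificity phosphatases are a mixed group, some of which, such as dusp14 and dusp22 in mammals, also act on MAP kinase pathways. In this group 7 of 10 gene copies passed, against 80.4% of all named gene copies. Those that passed were dusp18.L at 1558.07, dusp11.L at 412.04, dusp23.L at 334.8 and dusp22.S at 221.38. Also above were dusp12.L at 170.16, dusp19.L at 92.29 and dusp14.L at 57.6. Both probe sets of dusp12.L have IDs of the type used for probes shared by several transcripts. Just outside were dusp29.S at 18.3, dusp22a.L at 16 and dusp14.S at 13.2.

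Ephrins passed in all 8 measured copies, against 80.4% of all named gene copies. The RefSeq list holds 12 ephrin copies by name. The transmembrane ephrin-B2 gene was at 2516.75 for efnb2.S and 912.96 for efnb2.L, and efnb1.L was at 215.84. Of the 2 probe sets for efnb3.L, one was at 130.06 and the other at 12, below the Tag signal. In the A class, whose members are held in the membrane by a lipid anchor, efna4.L was at 917.78 and 152.82. For the other genes of the class, efna1.L was at 424.61, efna1.S at 243.21 and efna3.L at 76.4.

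Eph receptors passed in 6 of 7 measured copies, against 80.4% of all named gene copies. The RefSeq list holds 12 Eph receptor copies by name. In the A class epha4.S was at 1441.88, epha4.L at 75.77 and epha2.L at 875.34. The B class, which binds mainly B ephrins, was represented by ephb3.L at 713.56, ephb3.S at 507.92 and ephb4.L at 457.86. The exception was epha8.L, at 10.56 and 5.07 by its 2 probe sets. Thus ligands and receptors of both classes had signal in the same profile, without showing which cells made which.

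The PDGF pair of gastrulation was measured on both sides, by pdgfa.S and pdgfra.L. Of the copies that the RefSeq list holds by name, 2 of 7 PDGF ligand and 2 of 6 PDGF receptor copies were measured. The ligand gene pdgfa.S lay close above the Tag signal, at 35.95 and 34.4 by 2 probe sets, while pdgfra.L, the receptor gene, was at 161.83 and 124.26. At 1.47 times the Tag signal, pdgfa.S did not pass a floor of 2 times that signal. A second ligand gene, pdgfb.S, was at 77.7. The receptor-like gene pdgfrl.L, which lacks a kinase domain, was at 2.63.

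Of the receptors listed singly, the insulin-like growth factor receptor igf1r.S and the insulin receptor insr.L passed, at 183.26 and 69.8. The epidermal growth factor receptor egfr.L did not, at 19.3 and 11.9 by its 2 probe sets. Nor did the hepatocyte growth factor receptor met.L, at 5.29. The VEGF receptor gene flt1, which marks developing vessels at later stages, gave 23.6 (flt1.S) and 15.6 (flt1.L). The signal of flt1.S was the nearest below the Tag signal among all member gene copies, and that of fgf7.L the nearest above.

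**Figure D4:**
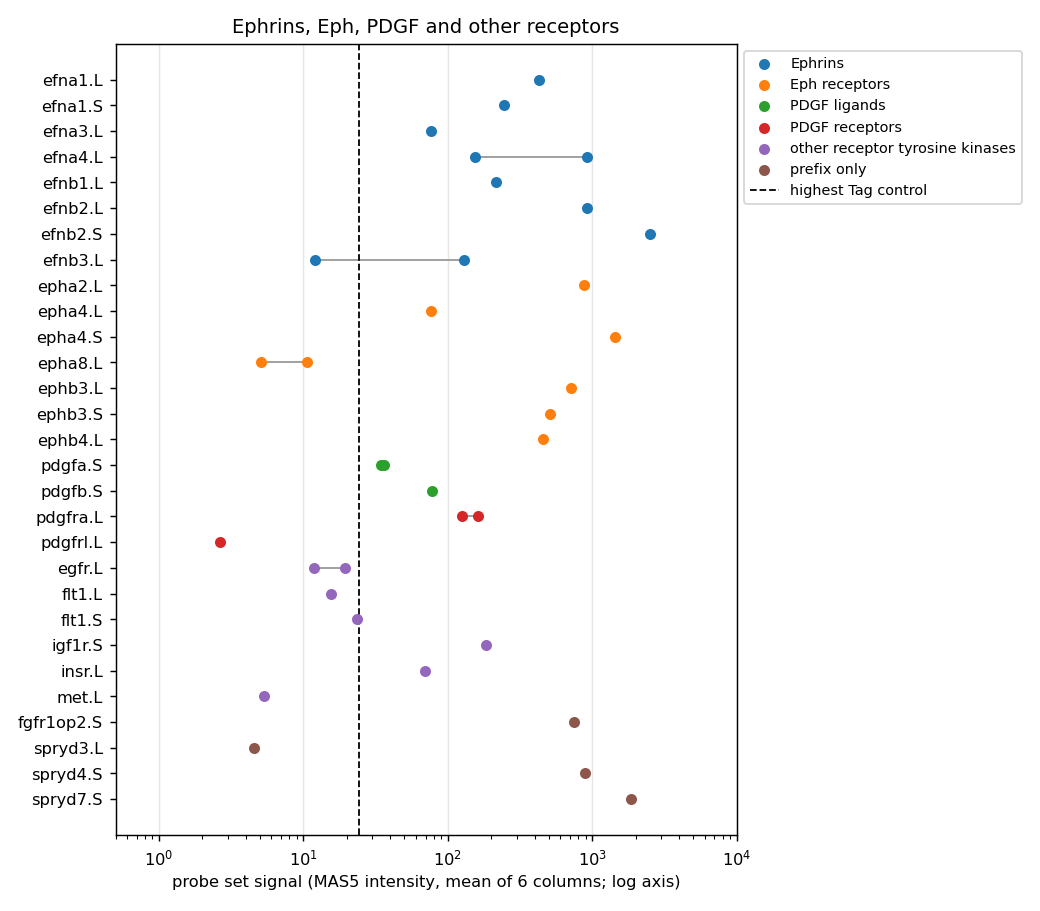
Points are the signals of single probe sets (MAS5 intensity, mean of 6 columns, log axis), with a grey line joining the probe sets of 1 gene copy and the highest Tag signal (24.4) dashed. All 8 ephrin copies have at least 1 point to its right, while egfr.L, flt1.L, flt1.S and met.L have none.

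Genes caught by a prefix but outside these families numbered 4. They were fgfr1op2.S at 742.53, named for a fusion partner of FGFR1, and 3 genes for proteins with a SPRY domain, which are not Sprouty proteins. These were spryd7.S at 1851.13, spryd4.S at 895.24 and spryd3.L at 4.56. Without all 4, 52 of 68 gene copies passed, against 80.4% of all named gene copies.

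Close to the Tag signal, within 2-fold on either side, lay 15 of 72 member gene copies (20.8%), 6 above it and 9 below, against 14.1% of all named gene copies. The difference was not tested. FGF ligands made up 6 of the 15, namely fgf2, fgf7.L and fgf9.S above and fgf4.L, fgf12.S and fgf13.L below. Also in this zone were pdgfa.S, spred1.L and dusp4.S above, and egfr.L, flt1.L, flt1.S, dusp14.S, dusp22a.L and dusp29.S below. For these genes the side of the Tag signal is the least certain. At the median Tag signal (2.62) all 72 gene copies passed, pdgfrl.L and fgf4.S by the narrowest margin, as did 95.6% of all named gene copies, so the count depends on the floor chosen.

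**Figure D5:**
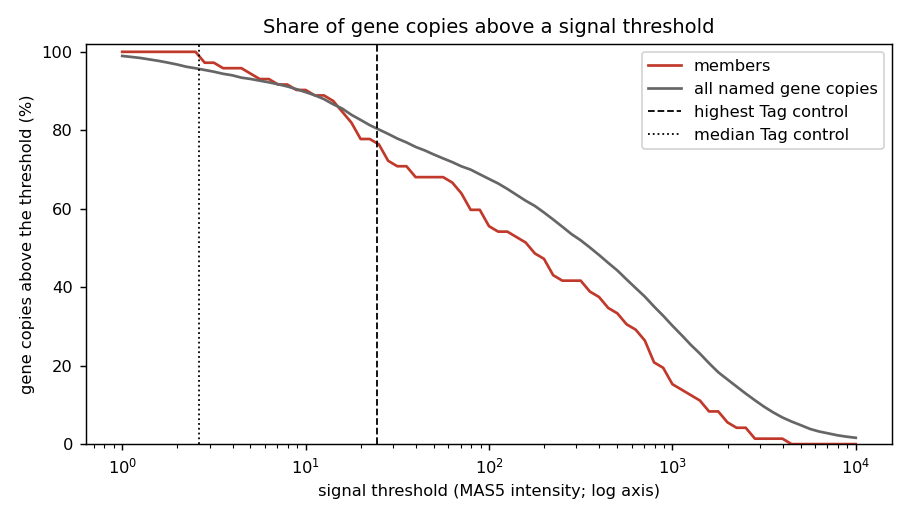
Lines give the percentage of the 72 member gene copies (red) and of all 11303 named gene copies (grey) whose brightest probe set exceeds a signal threshold (x axis, MAS5 intensity, log axis). At the highest Tag signal the shares are 76.4% and 80.4%, and to its right the red line runs below the grey one.

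The 2 copies of a gene were read by separate probe sets for 14 member genes. In 12 of 14 both copies fell on the same side of the Tag signal, against 88.1% of 2009 genes with both copies. Both passed for 10 genes, against 1559 of the 2009. These 10 were dusp1, dusp6, efna1, efnb2, epha4, ephb3, fgfr3, fgfr4, flrt3 and spry2. Neither copy passed for fgf4 and flt1. Only the L copy passed for dusp14 and fgfrl1. The only probe sets of efna1.S and ephb3.S have IDs of the type used for probes shared by several transcripts. Whether the probes of one copy also bind the other was not tested.

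Several probe sets read the same gene copy for 16 members, and 4 of these had probe sets on both sides of the Tag signal, against 21.0% of 2702 such gene copies over the array. The 4 were fgf8.L, fgfrl1.L, spry1.S and efnb3.L. In 8 others all probe sets lay above the Tag signal, and in 4 of those 8, fgfr2.L, flrt3.L, dusp12.L and efna4.L, the brightest exceeded the dimmest more than 2-fold. The closest among the 8 were pdgfa.S, dusp1.L and dusp11.L, whose brightest probe sets were 1.04, 1.08 and 1.09 times the dimmest. The last 4, fgf10.S, fgfrl1.S, epha8.L and egfr.L, had no probe set above the Tag signal. In each of these 4, the IDs of the probe sets differ only in A1 and S1. Which strand each reads was not tested, so they may not be separate reads of the transcript. No share over the array was counted for the 8 or for the last 4.

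Other genes of these pathways were read at the brightest probe set. Of 9 listed docking and adaptor genes, 7 were measured, and 8 of 9 copies passed. Among them were frs2.L, the FGF receptor docking protein, at 2294.72 and grb2.L at 1168.18, while frs3.S was at 12. In the Ras and MAP kinase core, 4 of 11 listed genes were measured, and 4 of 5 copies passed. The gene of the kinase that activates ERK, map2k1.L, was at 3153.46, and rras2.S was at 7.77. Transcription factors that act downstream of FGF were measured for 9 of 11 listed genes. All 12 copies passed, such as etv4.L at 3817.32, ets2.L at 7759.46 and tbxt.L at 5330.91. This list also holds genes with other inputs and maternal RNA, and it shares tbxt with the gastrula markers. Of 5 further negative regulators listed, 2 genes were measured, and 3 of 3 copies passed. They include sulf2.L, a sulfatase that acts on heparan sulfate, at 127.66. Over all named gene copies 80.4% passed.

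Of 17 listed ligand genes for the receptors listed singly, 6 were measured, and 3 of 8 copies passed. These were tgfa.L at 88.5, vegfa.L at 33.03 and igf3.L at 25, with vegfa.L and igf3.L close above the Tag signal. The other 5 were igf2.L at 0.98, igf2.S at 5.61, ins.L at 12.4, ins.S at 14.7 and vegfc.S at 14.6. Of 24 listed receptor tyrosine kinase genes outside the naming rule, 12 were measured, and 12 of 15 copies passed. Among them were the Wnt co-receptors ryk.L at 2334.81, ptk7.L at 1045.66 and ror2.L at 410.02, and tek.S at 1290.08. Closest above the Tag signal were kit.L at 30.11 and ret.S at 26.22. Not above the Tag signal in this group were erbb4.L at 8.42, ntrk2.L at 6.85 and musk.S at 17.8. None of these counts was tested against the 80.4% of all named gene copies.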

How the data were processed

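The deposited values are linear intensities with 2 decimals, 1 per probe set and column. MAS5, which summarises a probe set into a signal, is named per the submitters' processing notes; no version, scaling target, detection call or filter is recorded there. Columns were tested for proportionality by asking whether 1 factor fits all 32635 probe sets when each value lies within 0.005 of the printed one, and this step was checked on simulated columns. The fit planned by the series text, of paired control and Ext1 samples, was not made. Genes were named from the platform annotation, with 15495 probe sets having 1 symbol and 279 several. For 89 of 90 member probe sets the gene ID was found in the RefSeq list, and 0 symbols changed. Named were all family members of each role, gene copies near the Tag signal or with probe sets on both sides of it, and listed pathway genes. Members, lists and the Tag floor were chosen with earlier results of these data known. The number of arrays limits the precision, here 1 profile. No sequences were used. Python 3.11.15, numpy 2.4.6, pandas 2.3.3 and matplotlib 3.10.9 were used.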

Additional observations from a re-analysis of the deposited data

How the results depend on the processing

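No paired analysis was possible because control and Ext1 columns with the same number are proportional. When 1 column was taken as exact and not as rounded, 0 of 30 ordered pairs of columns were proportional, against 30 with rounding allowed. Every column is rounded to 2 decimals, so a column taken as exact could not fit at low signals. That outcome was therefore fixed in advance. The count of member gene copies above the floor was 55 of 72, and 8 alternatives could change it. All 8 stayed within 1.5-fold, a bound that no lower floor could break, since the count cannot exceed 72. That bound therefore says little, and the count moved with the floor. It was 72 at the median Tag signal (2.62), 49 at 2 times and 40 at 4 times the highest Tag signal, where 95.6%, 74.1% and 67.8% of all named gene copies passed. It was 51 at the dimmest probe set of each copy (75.4% of all) and 55 at the median probe set (79.3%). Without probe sets of the types _a_at, _s_at and _x_at it was 49 of 66 (79.5% of all). The other 7 alternatives gave 55 by construction: updating changed 0 symbols, and leaving a column out of the mean scales genes and Tag controls alike. With the second highest Tag signal (23.4) as floor, chosen after seeing the data, it was 56 (80.8% of all), flt1.S being added. Probe sets above the floor numbered 65 of 90. Over the alternatives they ran from 48, at 4 times the highest Tag signal, to 88, at the median Tag signal. Of all probe sets with 1 symbol, 63.1% and 94.9% passed these 2 floors. With 1 profile there is no replicate error for any value.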

Other observations

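Some member genes lie next to each other in the RefSeq gene list (assembly Xenopus_laevis_v10.1), and both neighbours were measured for 3 pairs. The ligand genes fgf3.L and fgf4.L are adjacent, with 0 protein-coding genes between them, and their signals were 152.27 and 18.3, on different sides of the Tag signal. The ephrin genes efna4.L and efna1.L are separated by 1 gene and were at 917.78 and 424.61, both above it. The copy named efna3.L is adjacent to efna1.S, although its suffix is that of the other subgenome; their signals were 76.4 and 243.21, also both above. Which subgenome the efna3.L probe set reads was not tested.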
